A study of Mus musculus with 13 samples.

Results

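The genes of the AP-1 family were examined for OCT4 and SMAD3 binding by ChIP-seq in mouse embryonic fibroblasts (MEFs) at day 3 of reprogramming. The 10 genes were the listed members Jun, Junb, Jund, Fos, Fosb, Fosl1, Fosl2, Atf3, Batf3 and Maff, out of 21938 protein-coding genes of GENCODE vM21 on the mm10 build. Every peak or listed site that overlapped a gene span, extended by 10 kb on each side, by at least 1 bp was assigned to that gene.

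The MEFs of every group held the MKOS transgene, in which doxycycline (dox) turns on Oct4, Sox2, Klf4 and c-Myc together. All had also received Smad3CA, a constitutively active SMAD3 delivered by retrovirus, so the cells without dox had Smad3CA and the uninduced transgene. OCT4 was precipitated from cells given 1 µg/ml dox (Dox+, n = 3), and SMAD3 from Dox+ cells (n = 3) and from cells without dox (Dox-, n = 3). The dose is that of the labels, and the study's methods give a lower one for its reprogramming medium. Input DNA came from Dox+ cells (n = 2) and Dox- cells (n = 2). OCT4 ChIP without dox and SMAD3 ChIP without Smad3CA were not analysed here, so endogenous SMAD3 and the virus-encoded form were not separated. The labels do not say whether replicates were separate cultures, so the p-values below measure the spread between these samples, which may be technical. Binding data do not measure fibroblast marker expression, so the cell type was taken from the labels.

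AP-1 is a dimer of basic leucine zipper (bZIP) proteins that binds TGAGTCA, or the related cAMP response element (CRE) TGACGTCA. JUN proteins pair with one another or with FOS, ATF, BATF and MAF proteins. FOS proteins generally need a partner from outside the FOS group, often a JUN protein. Many of the genes are immediate early genes, switched on within minutes by serum or growth factors, and AP-1 sites are abundant in the active enhancers of fibroblasts. SMAD3, which carries TGF-β signals to the nucleus, is known to bind DNA together with AP-1.

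The sequences below are the promoters of the members at which a merged SMAD3 peak overlapped the 250 bases before the RefSeq start in Dox+ and Dox- alike. They are read 5′ to 3′ along the gene from RefSeq (GRCm38, the assembly of mm10). Capitals mark GTCT, the core of the SMAD binding element, and the bZIP-type letters TGACGT or TGACATCA, each read on either strand. Fosl2 met the same condition, but its RefSeq window lies in an untranslated exon of GENCODE and is not shown.
Jun, chr4:95052223-95052472, minus strand: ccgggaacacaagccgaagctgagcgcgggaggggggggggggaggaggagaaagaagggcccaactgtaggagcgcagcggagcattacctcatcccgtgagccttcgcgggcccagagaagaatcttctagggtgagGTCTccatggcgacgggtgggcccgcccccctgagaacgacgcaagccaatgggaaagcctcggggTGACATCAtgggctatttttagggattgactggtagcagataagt
Junb, chr8:84978749-84978998, minus strand: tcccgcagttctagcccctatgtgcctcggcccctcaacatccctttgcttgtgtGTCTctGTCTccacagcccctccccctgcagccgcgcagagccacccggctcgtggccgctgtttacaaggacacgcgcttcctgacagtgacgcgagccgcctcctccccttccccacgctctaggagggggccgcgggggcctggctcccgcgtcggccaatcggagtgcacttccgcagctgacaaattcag
Fos, chr12:85473640-85473889, plus strand: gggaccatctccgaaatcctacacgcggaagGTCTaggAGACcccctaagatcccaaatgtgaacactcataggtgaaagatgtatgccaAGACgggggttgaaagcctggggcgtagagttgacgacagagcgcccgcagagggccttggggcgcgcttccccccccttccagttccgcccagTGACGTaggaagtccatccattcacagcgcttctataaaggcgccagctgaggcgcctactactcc
Atf3, chr1:191183334-191183583, minus strand: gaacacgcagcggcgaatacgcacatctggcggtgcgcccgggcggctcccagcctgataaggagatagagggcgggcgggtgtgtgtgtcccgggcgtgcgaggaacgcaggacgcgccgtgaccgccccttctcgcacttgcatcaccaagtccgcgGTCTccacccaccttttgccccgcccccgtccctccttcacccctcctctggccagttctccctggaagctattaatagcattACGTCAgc

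The Jun window held TGACATCA, the letters of the AP-1-like element known from this promoter, starting 45 bases before the start site. The Fos and Atf3 windows held TGACGT, the core of a CRE, 66 and 8 bases before their starts. TGACATCA was found in 2.93% and TGACGT in 6.47% of 32851 RefSeq promoter windows of the same length, and these letters were searched after the windows had been read. Among the 11 RefSeq promoters of members, TGACATCA was in 2 (Jun and Maff) and TGACGT in 3 (Atf3, Fos and Maff). GTCT was present in all 4 windows, but it was also present in 82.9% of all windows, which leaves little to read from it. Of the 11 RefSeq promoters that matched 9 members, 0 held TGAGTCA or TGACTCA (4.46% of all windows), 0 held the octamer ATGCAAAT of OCT4 (1.60%), 0 held the CArG box of serum response factor (1.47%), and 1, of Maff, held TGACGTCA (1.55%). The same Maff window held a KLF element, GGGCGTGG (7.72% for GGGTGTGG or GGGCGTGG). The longer SMAD letters CAGAC, whose AGAC is GTCT on the other strand, were in 1 promoter, another one of Maff (42.2%). A motif match describes the sequence and is not a measured site. The counts of 0 hold only for the 250 bases searched before each RefSeq start, and elements further upstream could not be found. The Jund window, chr8:70697489-70697738, ended well before the GENCODE start at 70698949, so the bases just before that start were not searched. The Fosl2 window, counted among the 11, lies in an untranslated exon of GENCODE.

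The lists differed greatly in size. OCT4 replicates had 1181, 1115 and 102 peaks, SMAD3 Dox+ replicates 420, 23981 and 10374, and SMAD3 Dox- replicates 1656, 18588 and 4038. The merged lists, called by the authors on pooled replicates, held 2022 OCT4, 12576 SMAD3 Dox+ and 11512 SMAD3 Dox- peaks. An absent peak in replicate 1 of a SMAD3 group, or in replicate 3 of OCT4, therefore says less than an absent peak in a long list.

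OCT4 peaks were not found at the AP-1 genes. With 0 of 10 members having a merged OCT4 peak, the count lay near the background of 4.85% of protein-coding genes, since so short a list would hold few such genes at that rate. Peaks of the 3 OCT4 replicate lists were also absent from all 10 windows. The nearest merged OCT4 peak lay 177 kb from Maff, 198 kb from Jun and 296 kb from Junb, and the median distance over the members was 794 kb, with the farthest 2937.2 kb from Fosb. These distances are too long to assign the peaks to the genes by the rule used here. In the authors' comparison given below, the nearest site higher for OCT4 than for SMAD3 was 16.3 kb from Jund and 45.5 kb from Fosb. Both were nearer than the merged OCT4 peaks, at 2289.8 and 2937.2 kb.

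SMAD3 peaks were found at most members, with and without dox. In the merged lists, 9 of 10 members had a SMAD3 peak in Dox+ (all but Batf3), against 52.5% of protein-coding genes. In Dox-, 7 of 10 had one (all but Fosb, Batf3 and Maff), against 48.0%. The members' windows held 19 merged peaks in Dox+ and 13 in Dox-. Their fold enrichment over input, the peak caller's linear ratio, ran from 1.51 to 3.80 with a median of 2.21, and 2 of the 32 peaks had a −log10 q-value of at least 4. The median member had 1709.5 bp of its window under merged Dox+ peaks and 1222 bp under Dox- peaks, and the median protein-coding gene 219 and 0 bp.

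**Figure D1:**
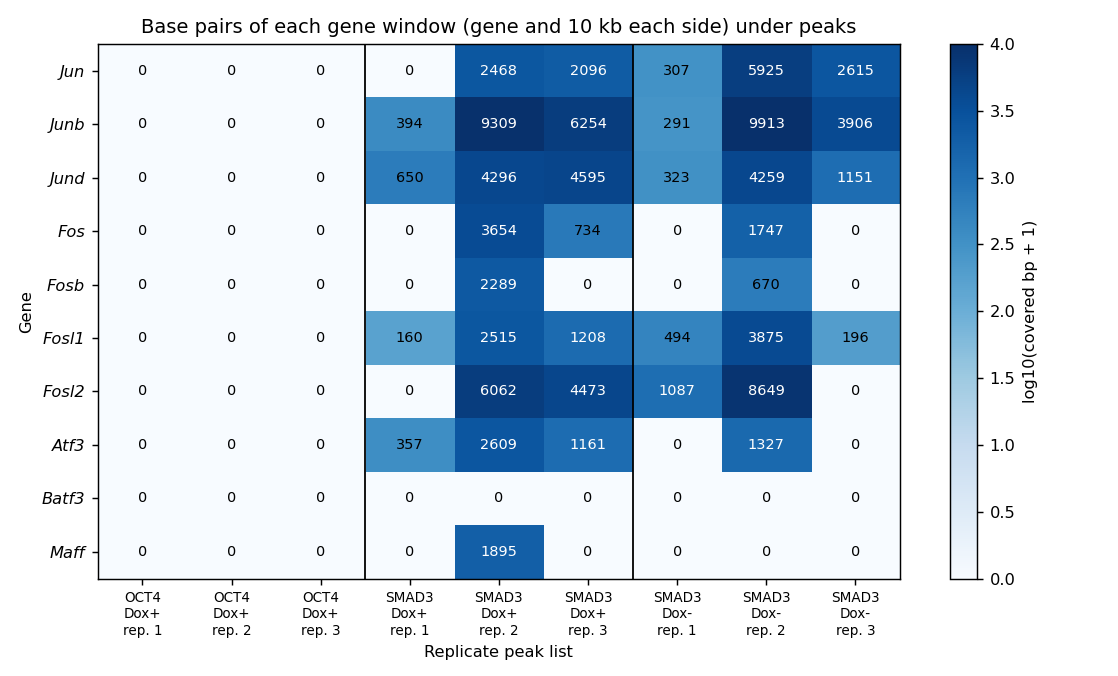
Base pairs of each gene window covered by peaks, for the 10 AP-1 genes (rows) and the 9 replicate peak lists (columns), with colour on a log10 scale. All OCT4 cells are 0, Junb, Jund and Fosl1 have SMAD3 values above 0 in all 6 lists, and Batf3 has none.

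In each group the longest list, replicate 2, had peaks at the most members. In Dox+, 4, 9 and 7 members had a peak in replicates 1, 2 and 3, against 2.57%, 63.0% and 47.0% of protein-coding genes. In Dox-, the counts were 5, 8 and 4, against 10.8%, 56.3% and 22.2%. In the shortest list 4 of 10 members had a peak where few other genes did. Junb, Jund and Fosl1 had a peak in all 6 lists, which held for 1.05% of protein-coding genes.

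Among the JUN genes, Junb had the most base pairs under merged SMAD3 peaks, 7545 in Dox+ and 6900 in Dox-, whereas in both replicate 1 lists Jund had more than Junb. Junb encodes a JUN protein that often restrains growth, and it lies on chromosome 8 at 84974484 to 84978718, minus strand. Its window held 394, 9309 and 6254 bp of peaks in Dox+ replicates 1, 2 and 3, and 291, 9913 and 3906 bp in Dox-. The groups overlapped, and in each group the long replicate 2 list gave the most. The merged Dox+ peak over Junb spanned 5912 bp, from 1677 bp before the start site to 4234 bp after it, at 2.25-fold enrichment. The merged Dox- peak spanned 3950 bp at 2.40-fold. The median merged peak was 486 bp long in Dox+ and 501 bp in Dox-. Of the covered bases, 5689 were shared, which was 75.4% of those in Dox+ and 82.4% of those in Dox-.

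All 6 lists shared 154 bp at the Junb start, from 73 bp before to 80 bp after it. The last 43 bases of the Junb sequence shown above lay in that stretch. A further stretch of 124 bp, 2084 to 2207 bp past the start, was shared by at least 5 lists. It lies beyond the coding transcript, and a non-coding transcript of the gene overlaps it. Further peaks of the Junb window sat at neighbours or upstream. Peaks lay 8379 to 9718 bp past the start in merged Dox+, and 8626 to 9993 bp in Dox-. Starts of Prdx2, Rnaseh2a and Gm49661 lay within 1 kb of them. A peak 6532 to 7413 bp upstream was in the merged Dox- list and in Dox- replicates 2 and 3, but in no Dox+ list. That region was among those taken below as tested by the authors, and it was not among the listed differences.

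Jund, a JUN gene expressed constitutively in many cells, has no intron and lies on chromosome 8 at 70698949 to 70700616, plus strand. Its window held 650, 4296 and 4595 bp in Dox+ and 323, 4259 and 1151 bp in Dox-. The groups overlapped here too. A peak covered the start site in all 6 lists, with fold enrichments at the start of 2.60, 2.40 and 1.92 in Dox+ and 2.88, 2.19 and 2.15 in Dox-. The bases common to all 6 lists ran from 94 bp before to 135 bp after the GENCODE start, over the untranslated and coding parts of the single exon. RefSeq places the start of Jund further upstream, at 70697739, and the same bases are then inside its transcript. In replicate 2 of both groups a further peak, 3415 and 3316 bp past the start at its near edge, lay within 1 kb of the start of Iqcn. A peak of the merged Dox+ list and the long peak of Dox+ replicate 3 also reached within 1 kb of the Iqcn start.

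Jun, the cellular counterpart of the viral oncogene v-jun, lies on chromosome 4 at 95049034 to 95052222, minus strand. The window held 0, 2468 and 2096 bp in Dox+ and 307, 5925 and 2615 bp in Dox-. The merged Dox- list had a single peak of 6818 bp from 1785 bp upstream to 5032 bp past the start, longer than 99.9% of that list, at 2.49-fold. The merged Dox+ list had 2 separate peaks. One of 1784 bp lay over the start at 3.21-fold, and one of 643 bp lay beyond the 3′ end at 2.04-fold. All 2427 Dox+ bases lay within the Dox- peak, where they made up 35.6%. The gap between the Dox+ peaks spans the coding part of this single-exon gene. Replicates 2 and 3 of Dox+ left it free of peaks. In Dox-, replicate 2 had a peak that reached 1832 bp past the start and another from 2771 bp on, and replicate 3 had a peak from 1832 to 2990 bp.

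**Figure D2:**
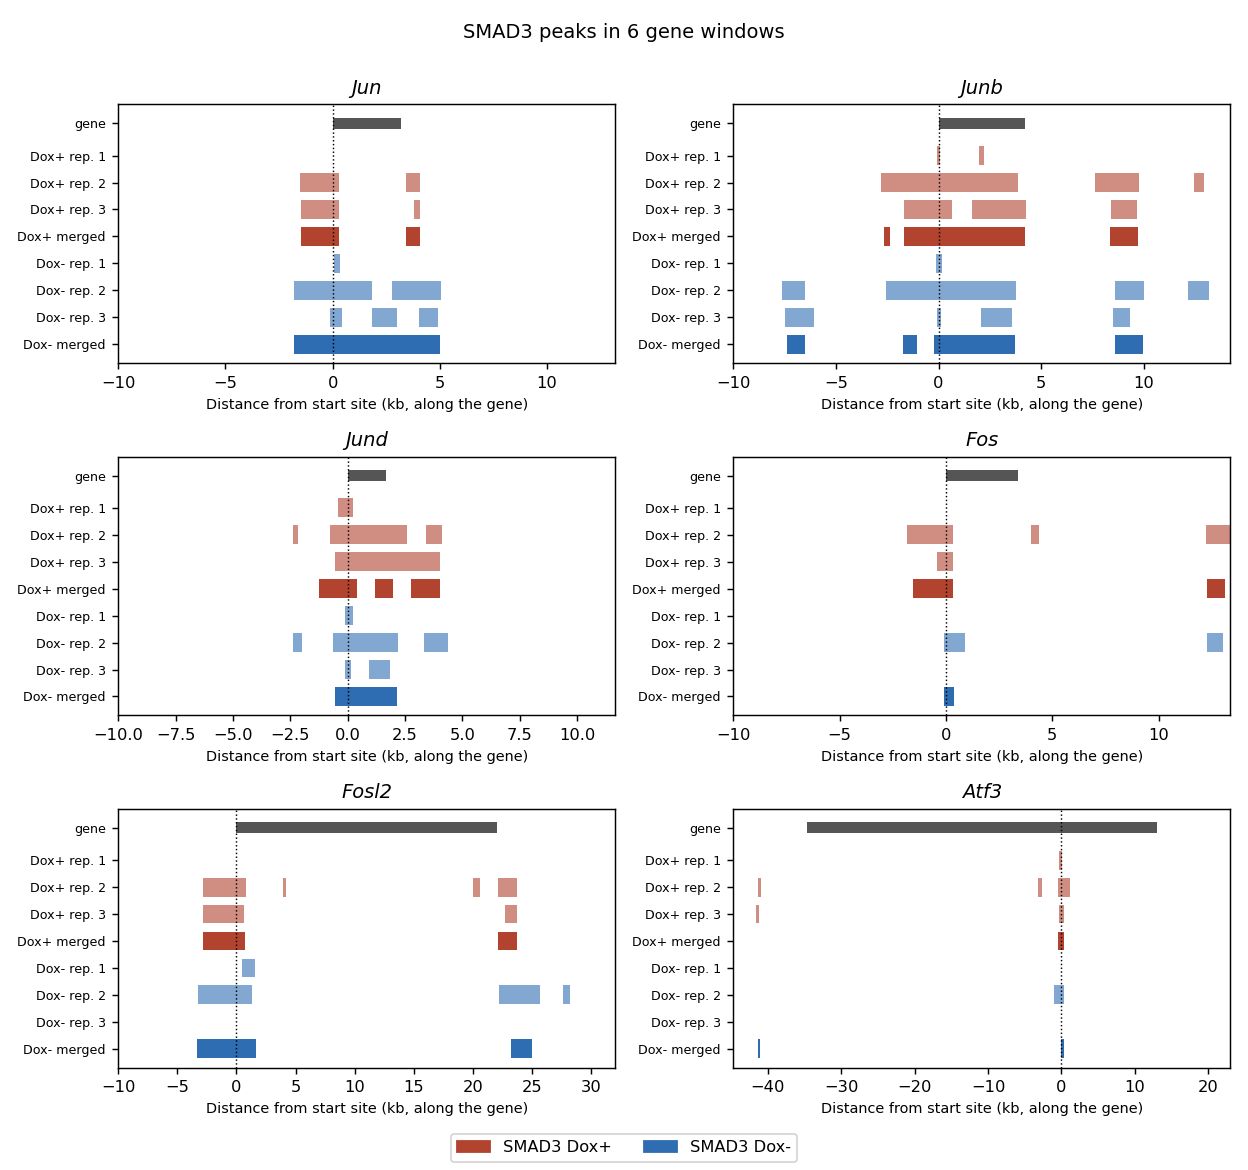
SMAD3 peaks in the windows of Jun, Junb, Jund, Fos, Fosl2 and Atf3, by distance from the start site of the main transcript in kb, increasing along the gene. Bars are peaks of the 3 replicate lists (pale) and the merged list (dark) of Dox+ (red) and Dox- (blue), and the grey bar is the gene. Peaks of all 6 replicate lists lie over the starts of Junb and Jund, and Jun has 1 long merged Dox- peak beside 2 merged Dox+ peaks.

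Of the FOS genes, Fos, Fosb and Fosl2 had peaks in 2 to 4 of the 6 lists, and Fosl1 in all 6. Fos, the partner of JUN in the classical AP-1 dimer, lies on chromosome 12 at 85473890 to 85477273, plus strand. Its window held 0, 3654 and 734 bp in Dox+ and 0, 1747 and 0 bp in Dox-. The values overlapped, and replicate 1 had no peak in either group. The start was under a merged peak in Dox+ (1863 bp, 2.01-fold) and in Dox- (499 bp, 2.09-fold). The Dox+ peak reached 1557 bp upstream, and the Dox- peak 109 bp. A second merged Dox+ peak of 852 bp lay 12270 to 13121 bp past the start at 2.60-fold, and replicate 2 of Dox- had a peak in the same place.

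Fosl2, whose protein FRA2 forms AP-1 dimers in connective tissue, lies on chromosome 5 at 32135801 to 32157842, plus strand. Its window held 0, 6062 and 4473 bp in Dox+ and 1087, 8649 and 0 bp in Dox-. The list without a peak was replicate 1 in Dox+ and replicate 3 in Dox-. The merged peaks over the start were 3546 bp long in Dox+ at 2.88-fold and 4932 bp in Dox- at 2.07-fold. Each group also had a merged peak past the 3′ end, of 1569 and 1801 bp, and the 3′ peaks overlapped in part.

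Fosb and Fosl1 had a peak over their own start in 1 of the 6 lists each. Fosb, on chromosome 7 at 19302696 to 19310051, minus strand, had peaks in replicate 2 of each group alone, with 2289 bp in Dox+ and 670 bp in Dox-. Its merged Dox+ peaks, at 3.80- and 3.46-fold, were the strongest of the members. The former lay 1040 to 1624 bp past the start, in an intron of the coding transcripts, and a peak of Dox- replicate 2 lay there at 3.72-fold. Fosl1 encodes FRA1, lies on chromosome 19 at 5447547 to 5455946, plus strand, and had 160, 2515 and 1208 bp in Dox+ and 494, 3875 and 196 bp in Dox-. Its start was under a peak in Dox+ replicate 3 alone, and the merged Dox+ peak began 50 bp past it. The 127 bp common to all 6 lists lay 9827 to 9953 bp past the Fosl1 start, within 1 kb of a start of the neighbour Ccdc85b. Another region, present in 4 lists, lay within 1 kb of a start of Fibp. The bases present in all 6 lists in the Fosl1 window were thus near a neighbour's start.

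The ATF, BATF and MAF members ranged from a shared peak to none. Atf3, a stress-induced bZIP gene, lies on chromosome 1 at 191170296 to 191218039, minus strand. Its window held 357, 2609 and 1161 bp in Dox+ and 0, 1327 and 0 bp in Dox-. The start of its main transcript, 191183340, was under a peak in all 3 Dox+ lists and in 1 Dox- list. The merged peaks there were 784 bp at 2.86-fold in Dox+ and 359 bp at 1.51-fold in Dox-. Maff, a small MAF gene on chromosome 15 at 79346621 to 79359076, plus strand, had peaks in Dox+ replicate 2 alone (1895 bp) and 1 merged Dox+ peak of 425 bp over the start at 1.86-fold. Batf3, known from dendritic cells, lies on chromosome 1 at 191097847 to 191108945, plus strand, and had no peak in any list. Its nearest merged SMAD3 peak was 34.7 kb away in Dox+ and 32.1 kb in Dox-.

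A merged peak covered the start of the main transcript in 8 members in Dox+ and 6 in Dox-, against 32.3% and 26.4% of protein-coding genes. In all 6 replicate lists, the start was covered at Junb and Jund, 2 of 10 members, against 0.178%. The merged covered length at Junb exceeded that of 99.9% of protein-coding genes in Dox+ and in Dox-, at Fosl2 that of 99.5% and 99.9%, at Jun that of 95.4% and 99.9% and at Jund that of 98.4% and 96.9%. Windows differ in length with the gene, and this order was not corrected for it. As a share of the window, the merged peaks covered 31.1% of Junb in Dox+ and 28.5% in Dox-, and 10.5% and 29.4% of Jun.

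To ask whether dox changed SMAD3 binding at these genes, the covered base pairs of each window were divided by the megabases covered by the whole list (bp per Mb). Jun had 0, 144 and 282 bp per Mb in Dox+ and 404, 440 and 1219.4 in Dox-. All Dox+ values were below all Dox- values, with means of 142 ± 141 and 688 ± 461 (SD, n = 3 each, exact two-sided permutation test, p = 0.1, adjusted p = 1). Atf3 had 2913.0, 152 and 156 bp per Mb in Dox+ and 0, 98.5 and 0 in Dox-. All Dox+ values were above all Dox- values, with means of 1073.7 ± 1592.8 and 32.8 ± 56.8 (SD, n = 3 each, exact two-sided permutation test, p = 0.1, adjusted p = 1). With 3 lists against 3, the exact permutation test cannot go below p = 0.1, so no gene could pass an adjusted p of 0.05. By this test 0 protein-coding genes had an unadjusted p under 0.05. The other 8 members overlapped between groups.

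The counts were therefore 1 member higher in all Dox+ lists and 1 member lower, against 0.506% and 1.66% of protein-coding genes. Neither separation was present in the unscaled base pairs, where Jun ranged from 0 to 2468 in Dox+ and from 307 to 5925 in Dox-, and Atf3 from 357 to 2609 and from 0 to 1327. The high Atf3 value of 2913.0 came from the shortest list, in which the whole list covered 0.123 Mb. Without that list, Dox+ replicate 1, the Dox+ minus Dox- difference of Atf3 went from 1040.9 to 121 bp per Mb. Without Dox- replicate 3, that of Jun went from -545.8 to -280.0. Without Dox+ replicate 1, 13.7% of protein-coding genes were above in all remaining Dox+ lists, so that setting separates many genes. The part of list length in these differences was not tested.

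**Figure D3:**
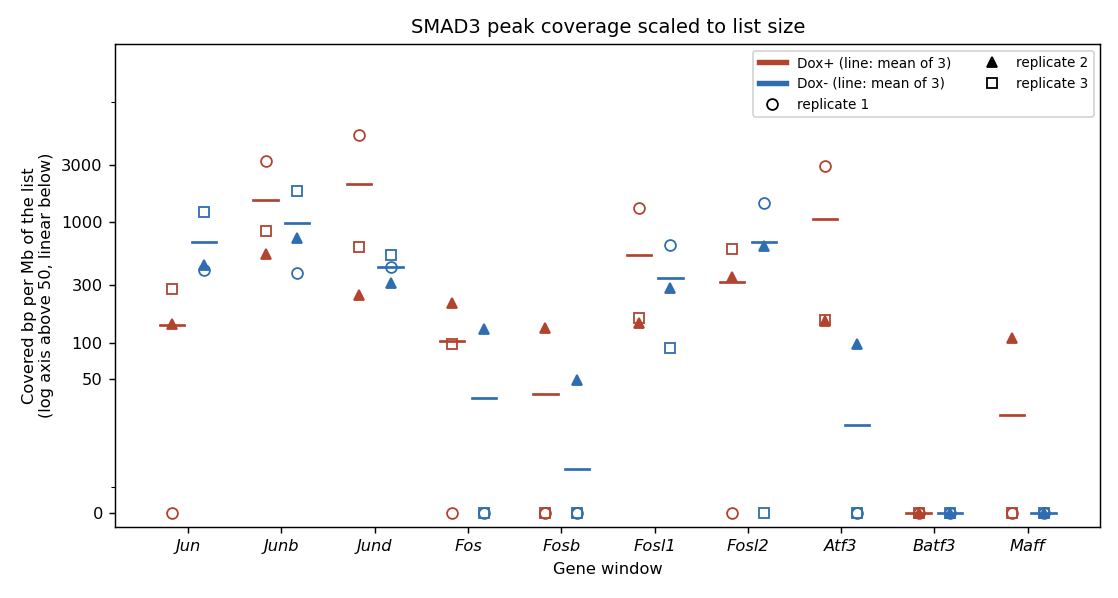
SMAD3 peak coverage of each gene window, in bp per Mb covered by the whole list, on an axis that is logarithmic above 50 and linear below. Symbols are the replicates of Dox+ (red) and Dox- (blue), and lines are means of 3. Jun in Dox- and Atf3 in Dox+ do not overlap the other group, and the remaining genes do.

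The authors' count-based comparisons listed no dox-dependent site at the AP-1 genes, a count near the background. Regions present in at least 2 replicate lists were taken to have entered those comparisons. Rebuilding them by joining overlapping peaks gave 13217 regions for SMAD3 Dox+ against Dox-, among which were all listed sites. Of these, 18 lay in the windows of 8 members, and 3 of the 18 were in all 6 lists. Among the 18, 0 were listed as higher in Dox+, against 8.90% of all rebuilt regions, and 0 as lower, against 6.84%. At the level of genes, 0 of 10 members had a site listed as higher, against 6.64% of protein-coding genes, and 0 had a site listed as lower, against 3.85%. These counts of 0 lay near the shares over all regions and genes, since 18 regions or 10 genes would hold few such sites at those rates. A region that was not listed either did not reach the authors' limits or was not tested, and is not thereby shown to be unchanged. The nearest site higher in Dox+ was 18.6 kb from Jund, and the nearest site lower in Dox+ was 50.4 kb from it.

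When OCT4 and SMAD3 were compared within Dox+ cells, 13 of 9903 rebuilt regions lay in the windows of 7 members. Of these, 0 were listed as higher for OCT4, against 13.6%, and 2 as higher for SMAD3, against 6.64%. All 13 regions came from SMAD3 lists alone, because the windows held no OCT4 peak, whereas the 9903 also included regions from OCT4 lists. A low OCT4 count was therefore built in, and these shares are not a like comparison. Counted as genes, 2 of 10 members had a SMAD3-higher site (5.15% of protein-coding genes) and 0 an OCT4-higher site (4.17%). The site at Jund spanned 4890 bp, from 773 bp before the GENCODE start to 4116 bp after it, and so reached within 1 kb of the start of Iqcn. There the authors' mean was 6.17 for SMAD3 and 4.71 for OCT4, as log2 of normalised read counts, a difference of -1.46 for OCT4 minus SMAD3. The site in the Fosl1 window, 738 bp within 1 kb of a Ccdc85b start, had means of 3.46 and 1.48, a difference of -1.99. Means carry no replicate error, and the antibodies differ, so these values compare precipitations and not amounts of bound protein.

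**Figure D4:**
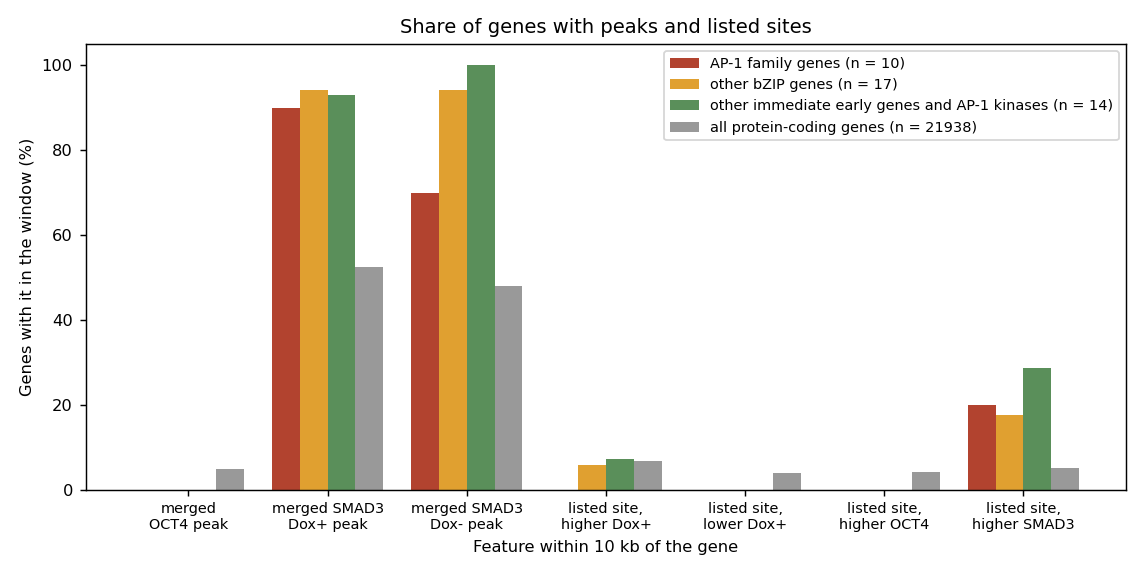
Share of genes (percent) with a merged peak or a listed site within 10 kb, for the 10 AP-1 genes, the other bZIP genes, the other immediate early genes with AP-1 kinases, and all protein-coding genes. The AP-1 genes have bars of 90.0% and 70.0% for SMAD3 peaks in Dox+ and Dox-, 20.0% for sites higher in SMAD3, and none elsewhere.

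SMAD3 peaks were also present at most related genes. Of 17 other bZIP genes, including the AP-1 partners Atf2, Atf7, Batf and Jdp2, 16 had a merged SMAD3 peak in Dox+ and 16 in Dox-, and 0 had a merged OCT4 peak. Of 14 other immediate early genes and kinases of the pathway, 13 and 14 had a SMAD3 peak and 0 an OCT4 peak. The median covered length was 902 bp in Dox+ and 1032 bp in Dox- for the bZIP genes, and 786 and 791 bp for the second list, below the 1709.5 and 1222 bp of the AP-1 genes. Differences between the lists were not tested.

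Both related lists held listed sites. Egr1, a zinc finger immediate early gene, had a site higher in Dox+, with authors' log2 means for SMAD3 of 4.23 in Dox+ and 1.09 in Dox-. Mafk, a small MAF gene related to Maff, had means of 3.08 and 0.44 at such a site. Sites lower in Dox+ were found at 0 genes of either list. Sites higher for SMAD3 than for OCT4 lay at 3 bZIP genes and 4 genes of the second list. Among them Jdp2, a repressor that dimerises with JUN, had means of 3.76 for SMAD3 and 1.12 for OCT4. Dusp1, a phosphatase of MAP kinases, had 3.63 and 1.12, Creb1, the CRE-binding protein, had 3.62 and 1.12, and Batf had 3.43 and 1.12. The OCT4 mean was the same at Jdp2, Dusp1, Creb1 and Batf. It may thus be a lower limit of the normalised counts and not a measured level, which was not tested.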

How the data were processed

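ChIP-seq peak lists of 9 libraries were analysed (OCT4 Dox+, SMAD3 Dox+ and SMAD3 Dox-, 3 replicates each), all called against the pooled inputs. Per the labels and the methods of the study, reads were trimmed (Trimmomatic 0.36), aligned to mm10, filtered for duplicates and mapping quality, and peaks were called with MACS2 2.1.0 on each replicate and on pooled replicates (merged), narrow for OCT4 and broad for SMAD3. In the deposited peak lists each peak has a fold enrichment (linear ratio) and a −log10 q-value by the authors, which for broad peaks is an average over the region. The deposited DiffBind tables hold group means as log2 of normalised counts, used as the authors' means. Their fold changes and p-values were not used, beyond a site being listed as higher or lower. The aligned depth per library is not given in the sources used here.

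Gene windows were the GENCODE vM21 span with 10 kb each side. Covered base pairs were counted from the union of a list's peaks with Python 3.11.15 scripts (numpy, pandas), divided by the megabases of the list, and compared by an exact two-sided permutation test for each of 21938 protein-coding genes, adjusted over all of them by Benjamini-Hochberg. The procedure was tested on simulated data. The main transcript was the one numbered 201 in GENCODE. Start-site counts used the 21906 genes that have one. The authors' tested regions were inferred, by joining overlapping replicate peaks and keeping those in at least 2 lists. Named genes were all 10 members, neighbours with a peak within 1 kb of their start, and up to 6 genes of the other lists by the difference of group means. The members and lists were chosen with earlier results of these data known. Motifs were searched in 250 bases before each RefSeq start, and the letters TGACGT and TGACATCA were added after the sequences had been read. Signal matrices and gapped peaks were not used.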

Additional observations from a re-analysis of the deposited data

How the results depend on the processing

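The counts of members with an OCT4 peak (0) held under every window, threshold and left-out replicate tried. For a SMAD3 peak in Dox+ (9) and Dox- (7), requiring a −log10 q-value of at least 4 left 2 and 0 members, and requiring support in 2 replicate lists with each list left out in turn gave 4 to 7 and 4 to 5. With 50 kb each side, 1 member had a site higher in Dox+ and 2, Jund and Fosb, an OCT4-higher site. With the gene span alone, 1 member had a SMAD3-higher site. The member above in all Dox+ lists (1) was lost (0) with unscaled base pairs, the strongest 420 peaks of each list, peaks with −log10 q of at least 2, the gene span alone, 50 kb, and the highest fold enrichment, and the member below (1) was lost (0) under the same settings except the gene span and 50 kb. Leaving out a list gave 1 to 2 members above and 1 to 2 below, while the shares over all protein-coding genes ran from 0.652% to 13.7% above, the highest without Dox+ replicate 1, and from 1.86% to 5.55% below. Leaving out replicate 1 of both groups, chosen after seeing the data, gave 1 and 1 of 10 members, against 15.6% and 5.86% of genes.

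Same-numbered SMAD3 lists of Dox+ and Dox- deviated together for replicates 1 and 2 (correlation across genes 0.35 and 0.38) and not for replicate 3 (-0.01), and Dox+ replicate 3 correlated best with Dox- replicate 2 (0.22), so the numbers were not taken as pairs. With the replicate block, 0 genes passed an adjusted p of 0.05 (smallest p 0.25), and 1 member was above and 1 below in all pairs, against 0.852% and 3.01% of genes. No value was possible for SMAD3 signal at OCT4 peaks of the members, because their windows held none.

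The sign of the Dox+ minus Dox- coverage reversed in 18 of 140 recomputed differences, each with an exact permutation p of at least 0.4. Of the 140, 14 were of Batf3, whose main difference was 0 and could not reverse. Recomputed differences of 0 at other genes were also counted as not reversed. Without scaling the reversed genes were Fosl1 (-227.3 bp) and Fosl2 (266.3 bp). With the strongest peaks Fosl1 (-62.8 bp per Mb) reversed. With −log10 q of at least 2 Fos (-10.6), Fosb (-6.54), Fosl2 (28.9) and Atf3 (-127) reversed. With the gene span alone Fos (-0.937), with 50 kb Fosb (-181) and Maff (-161), and by highest fold Fosl1 (-0.0786) and Fosl2 (0.0739) reversed. Without Dox+ replicate 1 Junb (-288) and Fosl1 (-189), without Dox+ replicate 2 Fosb (-16.6), and without replicate 1 of both groups Junb (-587), Fosl1 (-34.9) and Fosl2 (157) reversed. With each list left out in turn, the difference ranged from -288 to 1047.9 bp per Mb for Junb, from -16.6 to 50.1 for Fosb, from -189 to 390.9 for Fosl1, from -718.2 to -2.61 for Fosl2, from 8.09 to 2534.8 for Jund, from 121 to 1501.7 for Atf3, from -687.6 to -280.0 for Jun, from 6.14 to 113 for Fos and from 0 to 55.2 for Maff. The lowest values of Jund and Atf3 were those without Dox+ replicate 1. The cause of these changes was not tested. The short lists limit what an absent peak shows.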
